A study of Mus musculus with 52 samples.

Results

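The promoters described here belong to the genes of the RNA polymerase II initiation machinery: the subunits of RNA polymerase II, the general transcription factors TFIIA to TFIIH, TFIID with the TATA-binding protein, and the Mediator complex. They were taken from the table of promoter accessibility by gene symbol alone (Polr2a to Polr2m, Gtf2a, Gtf2b, Gtf2e, Gtf2f and Gtf2h genes, numbered Med and Taf genes, and Tbp, without Taf1b, Taf1c, Taf1d and Taf7l). This gave 76 promoters of 75 genes among 20633 promoters in the table. There were 13 promoters of RNA polymerase II subunits, 13 of TFIIA to TFIIH, 19 of TFIID with Tbp and 31 of Mediator, where Med27 is represented by 2 start sites. The symbol rule also takes in a few genes of related function. Taf1a encodes a subunit of the TBP complex of RNA polymerase I, Taf5l and Taf6l encode subunits of the SAGA coactivator, Med9os is an antisense transcript at the Med9 promoter, and Polr2e, Polr2f, Polr2h, Polr2k and Polr2l encode subunits shared with the other RNA polymerases.

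Transcription of a protein-coding gene begins when TFIID, through TBP and the TBP-associated factors, recognises the promoter and TFIIA and TFIIB stabilise its binding. TFIIF then brings in RNA polymerase II, TFIIE and TFIIH open the DNA and phosphorylate the polymerase tail, and Mediator relays signals from DNA-bound activators to the polymerase. The genes for this machinery are expressed in essentially every cell, and most of their promoters lie in CpG islands, the CpG-dense and usually unmethylated stretches to which KDM2A and KDM2B bind through their ZF-CxxC domain.

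Calibrated ATAC-seq (cATAC-seq), in which a fixed share of Drosophila cells serves as a spike-in, was carried out in 4 mouse embryonic stem cell (mESC) lines, each untreated or after tamoxifen at 800 nM for 96 h. All lines carry a tamoxifen-inducible Cre recombinase from the Rosa26 locus, so that the untreated and treated cells of a line differ in tamoxifen as well as in the deletion. In Kdm2a/b-JmjC fl/fl cells, derived from mice, tamoxifen removes the JmjC domain and with it the long forms of KDM2A and KDM2B, while their short forms remain. In the Kdm2a/b-CXXC fl/fl cells it removes the ZF-CxxC domain of both proteins. In the Kdm2b-CXXC fl/fl cells and the Kdm2a-CXXC fl/fl cells it removes that of the named protein. The Kdm2a-CXXC and Kdm2a/b-CXXC lines were expanded from single edited clones. The Kdm2a/b-CXXC line was made by editing Kdm2a in the Kdm2b-CXXC line. There were 4 untreated and 4 treated libraries for Kdm2a/b-CXXC and 3 of each for every other line, 26 in all, described as biological replicates. A value is the number of reads in a 400 bp interval around the start site divided by a spike-in size factor, and is called calibrated reads below. All intervals have this length, so levels of different genes do not differ through interval length. Sequence bias of the Tn5 transposase and differences in base composition were not corrected, since the input DNA was not used. Comparisons of levels between genes are therefore descriptive. Libraries held 1488370 to 3025358 reads in promoters and a median of 58 to 108 reads per promoter. Among stem cell markers, the promoters of Sox2, Zfp42 and Tfcp2l1 lay at the 85.3rd to 88.8th percentile of all promoters in reads, Nanog at the 56.0th, Pou5f1 at the 48.4th and the 2 Esrrb starts at the 41.1st and 17.2nd. The promoters of 6 genes of other lineages lay between the 8.22nd (Alb) and the 36.9th (Gfap), so that some were above the lower Esrrb start. Promoter reads do not measure the floxed exons, so the deletion itself was not checked here.

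The sequences just upstream of 6 start sites show the range of promoter types in the set. Shown are up to 150 bases before the annotated start in the mm10 build (GRCm38.p6), 5′ to 3′ on the strand of the gene, for the nucleating factors Tbp and Gtf2b, the largest polymerase subunit Polr2a, the Mediator subunit Med1, the most accessible promoter of the set (Taf15, without the 35 bases nearest the start, which another transcript covers) and the least accessible (the internal start of Med27). Capitals mark matches to any of the motifs that are listed further on.
Tbp, chr17:15499738-15499887, + strand: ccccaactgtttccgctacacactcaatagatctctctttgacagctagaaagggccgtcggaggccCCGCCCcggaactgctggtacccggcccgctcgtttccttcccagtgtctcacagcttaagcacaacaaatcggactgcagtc
Polr2a, chr11:69758634-69758783, - strand: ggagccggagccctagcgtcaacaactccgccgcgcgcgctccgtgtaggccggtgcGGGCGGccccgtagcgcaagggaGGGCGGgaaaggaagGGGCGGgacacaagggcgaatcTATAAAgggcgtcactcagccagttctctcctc
Gtf2b, chr3:142765097-142765246, + strand: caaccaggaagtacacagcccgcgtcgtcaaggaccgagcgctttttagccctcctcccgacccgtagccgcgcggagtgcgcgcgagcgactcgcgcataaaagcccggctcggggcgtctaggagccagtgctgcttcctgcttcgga
Med1, chr11:98192907-98193056, - strand: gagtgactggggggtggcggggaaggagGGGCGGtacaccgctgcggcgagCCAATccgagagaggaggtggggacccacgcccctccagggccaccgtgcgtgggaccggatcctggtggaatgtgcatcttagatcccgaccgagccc
Taf15, chr11:83472958-83473072, + strand: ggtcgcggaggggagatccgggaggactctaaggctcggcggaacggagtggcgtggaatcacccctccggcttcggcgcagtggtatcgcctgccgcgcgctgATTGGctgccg
Med27 internal start, chr2:29378364-29378513, + strand: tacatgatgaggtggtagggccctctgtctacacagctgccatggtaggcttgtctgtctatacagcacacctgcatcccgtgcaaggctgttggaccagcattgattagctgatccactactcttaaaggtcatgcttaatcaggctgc
The Polr2a stretch held 17 CpG dinucleotides and combined 3 GC boxes, which begin 93, 70 and 55 bases before the start, with a TATA box that begins 33 bases before it. The Tbp, Gtf2b and Med1 stretches held 9, 20 and 12 CpG dinucleotides and no TATA box of these letters. The Taf15 stretch, 115 bases long, had 15 CpG dinucleotides and a reverse CCAAT box, and the Med27 internal start had a single CpG.

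Of the 76 promoters, 71 (93.4%) were CpG-rich, meaning that the interval had 50% GC or more and that CpG occurred at no less than 0.6 of the frequency its C and G content predicts, against 54.6% of all promoters. All 19 promoters of the TFIID group met the definition. The 5 that did not were those of Med24, Gtf2h4 and Gtf2a1, whose GC contents of 47.8%, 50.5% and 49.8% or CpG ratios lay just under the limits, and the CpG-poor starts of Polr2m (39.0% GC) and Med27 (44.5% GC, CpG ratio 0.15). Many members share their promoter with a neighbour. Another gene started on the opposite strand within the interval at 17 of the 76 (22.4%), against 12.3% of all promoters and 18.3% of the CpG-rich ones. These included 6 of 13 polymerase subunit promoters (Polr2b with Noa1, Polr2d with Gm26533, Polr2f with 1700088E04Rik, Polr2h with Clcn2, Polr2i with Tbcb, Polr2l with Tspan4) and 5 of 13 TFIIA to TFIIH promoters (Gtf2h1 with Hps5, for example). They also included 5 of 31 Mediator promoters (Med20 with Bysl, Med22 with Rpl7a, and Med9 and Med9os with each other). In the TFIID group it was 1 of 19, that of the SAGA gene Taf5l with Urb2. Overlapping intervals count the same reads for both genes, so the accessibility of Polr2i cannot be told apart from that of Tbcb, nor Med9 from Med9os.

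Motif letters were searched on both strands over the 400 bp. A match is a description of the sequence and not evidence of binding, and the letters of none of the motifs contain those of another. The GC box GGGCGG, which SP and KLF factors bind, was present at 60 of 76 members (78.9%), against 56.3% of all promoters and 82.7% of the CpG-rich ones. The ETS motif CCGGAAG was present at 24 (31.6%, against 14.1% of all and 21.7% of the CpG-rich promoters), among them Polr2a, Polr2c, Gtf2f1, Taf1, Taf12 and Med15. The CREB and ATF core TGACGT was found at 16 (21.1% against 10.2% and 13.9%), the E-box CACGTG at 14 (18.4% against 9.54% and 11.9%), the YY1 motif AAGATGGC at 9 (11.8% against 4.59% and 6.58%), including Gtf2b, Taf4 and Med12, the THAP11 core ACTACAA at 6 (7.89% against 3.82% and 3.83%) and the NRF1 motif TGCGCATGC at 5 (6.58% against 2.08% and 3.26%). The CCAAT box was found at 28 (36.8%), close to its 40.0% among all promoters. The TATA box letters TATAAA occurred at 8 members (10.5%, against 10.4% of all and 4.54% of the CpG-rich promoters), namely Med28, Polr2a, Polr2c, Gtf2f1, Taf11, Taf13, Taf4b and Taf6, and not at Tbp itself.

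Most of these promoters were highly accessible. To compare lines, the level of a promoter was taken as its share of the promoter reads of a library (RPM, reads out of 1000000 promoter reads of that library), which does not use the spike-in. Averaged over the 26 libraries, 69 of the 76 lay above the median of all promoters, and the median member had 73.7 RPM, against 39.3 over all promoters and 69.7 over all CpG-rich ones. By complex the medians were 86.0 for TFIIA to TFIIH, 80.3 for TFIID with Tbp, 71.7 for the polymerase subunits and 66.8 for Mediator, with broad overlap. Members with a gene starting on the opposite strand had a median of 82.4 and the rest 72.8.

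**Figure D1:**
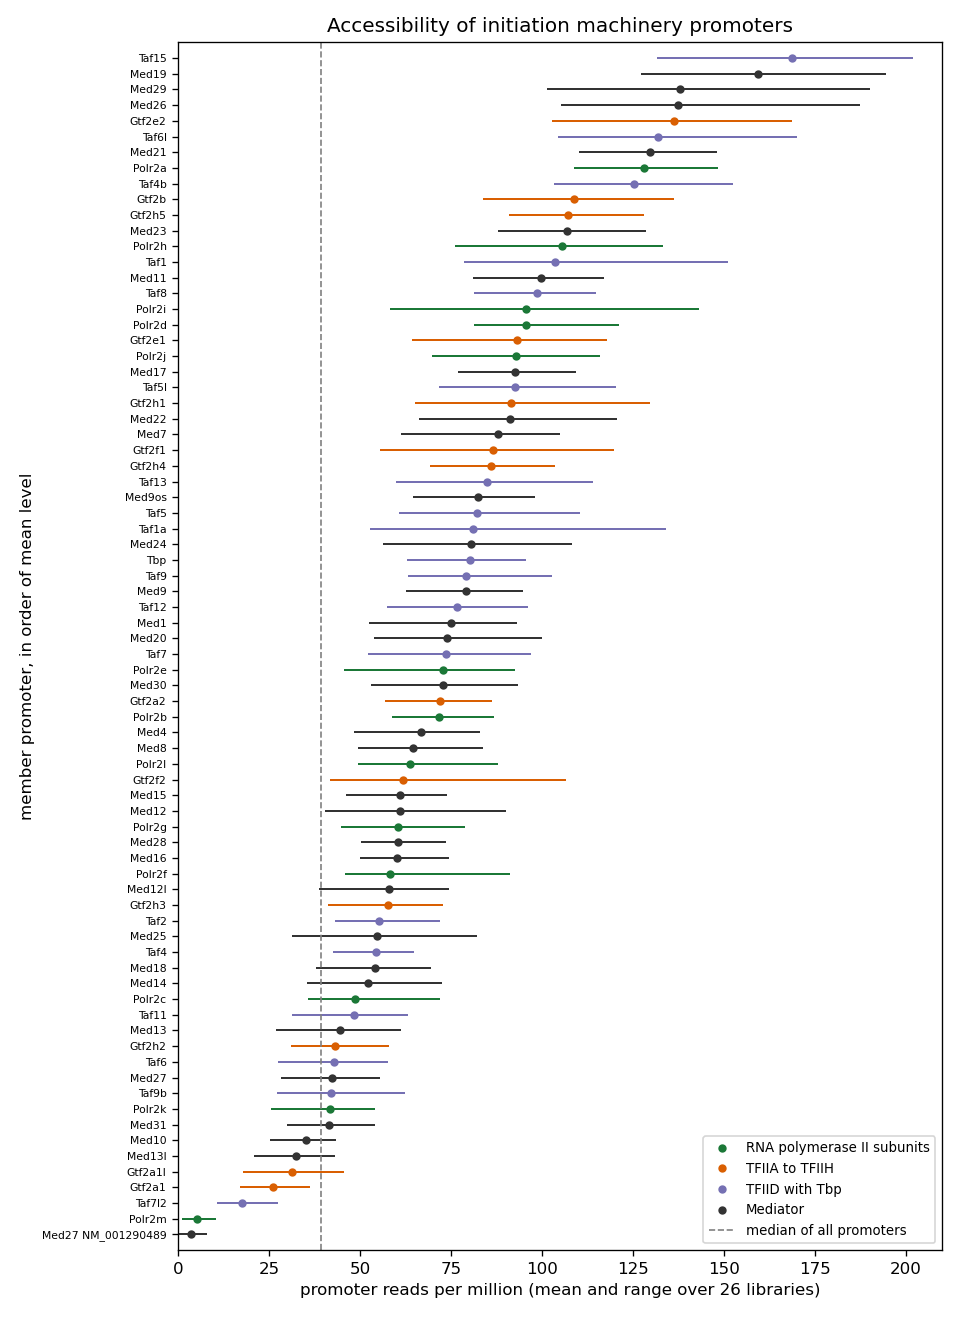
Promoter RPM of each of the 76 members (horizontal axis, points for the mean and lines for the lowest and highest of 26 libraries), ordered by mean level and coloured by complex, with the median of all promoters (39.3) as a dashed line. Taf15 and Med19 stand at the top, 7 promoters have a mean below the dashed line, and Polr2m and the internal Med27 start lie far below the rest.

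The highest promoter of the set was that of Taf15, a FET-family RNA-binding protein found with TFIID, at 169 ± 15.4 RPM (SD, n = 26 libraries, lowest 132, highest 202). Med19, a subunit of the Mediator middle module, followed at 160 ± 17.2. The highest of the general factors was Gtf2e2, the small TFIIE subunit, at 136 ± 17.5, and of the polymerase subunits Polr2a at 128 ± 8.69. The ranges of neighbours in this order overlapped throughout the upper part. At the other end, Gtf2a1, the precursor of the large TFIIA subunits, had 26.1 ± 5.09, Taf7l2, a Taf7 relative, 17.5 ± 4.17, Polr2m, which encodes a polymerase-associated protein, 5.03 ± 2.30 and the internal start of Med27 3.49 ± 1.85 RPM. These last promoters had 3 to 19 and 0 to 12 reads per library, so that their levels carry a large counting error.

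Some intervals lie away from another start of the same gene. The Polr2m interval is centred on the start of a transcript 1025 bp downstream of the start of the other RefSeq transcript, and that of Gtf2a1 lies 838 bp downstream of an alternative start. The low Med27 interval lies 31703 bp inside the gene, whose main start had 42.2 ± 6.19 RPM. The Taf11 interval sits 1518 bp downstream of the annotated start of its own accession, at the start of another Taf11 transcript, and the remaining 75 intervals have their own start within 200 bp of the centre. The Taf7l2 interval is centred on its start. Accessibility at the alternative starts of Polr2m and Gtf2a1 was not analysed here, and the part of the placement in the levels was not tested.

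Paralogous subunits differed in some pairs and not in others. Taf4b, the germ cell-enriched form of the TFIID subunit TAF4, had 125 ± 11.8 RPM and Taf4 54.3 ± 6.004, and no library of Taf4b (lowest 103) was as low as any of Taf4 (highest 64.8). The Taf6l promoter of the SAGA complex (132 ± 17.1) likewise lay above that of Taf6 (42.8 ± 8.65) in every library. Taf9 (79.2 ± 9.69, lowest 63.2) was above Taf9b (41.97 ± 8.49, highest 62.3). The ranges overlapped for Taf5 (82.1 ± 13.9) and Taf5l (92.5 ± 12.1), for the kinase module genes Med12 (60.9 ± 12.7) and Med12l (57.9 ± 8.38) and Med13 (44.5 ± 9.36) and Med13l (32.5 ± 6.70), and for Gtf2a1 and its germ cell relative Gtf2a1l (31.3 ± 6.60).

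Replicates agreed closely in RPM. Within groups, the median coefficient of variation of the members was 8.15% to 12.4%, where counting alone gives 7.30% to 9.23%. On the calibrated scale it was 10.9% to 20.4% in the Kdm2a/b-JmjC, Kdm2a/b-CXXC and Kdm2a-CXXC groups but 28.4% and 30.4% in the untreated and treated Kdm2b-CXXC groups. In that line the median calibrated level of the members was 203, 125 and 162 in the untreated and 245, 145 and 158 in the treated libraries, and replicate 1 of both groups stood above the rest.

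The first comparison asked whether the loss of both long KDM2 forms, and with them of the JmjC demethylase domain, changes accessibility at these promoters. In the Kdm2a/b-JmjC line the calibrated values were slightly lower after tamoxifen at nearly all members. The log2 fold change was below 0 at 71 of 74 tested members (95.9%) and at 83.4% of all 17174 promoters tested, with medians of -0.20 and -0.21. The median member moved by -0.15, -0.30 and -0.20 in the 3 treated libraries relative to the untreated mean, and all promoters by -0.10, -0.29 and -0.22. No member passed the threshold of p under 0.05 after Benjamini-Hochberg adjustment together with a change of more than 1.4-fold (limma), which 0.0757% of all promoters passed. At an unadjusted p under 0.05, 19 of 74 were lower and 0 higher, which is 25.7% of the members against 20.6% of all promoters in either direction and 20.3% lower.

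**Figure D2:**
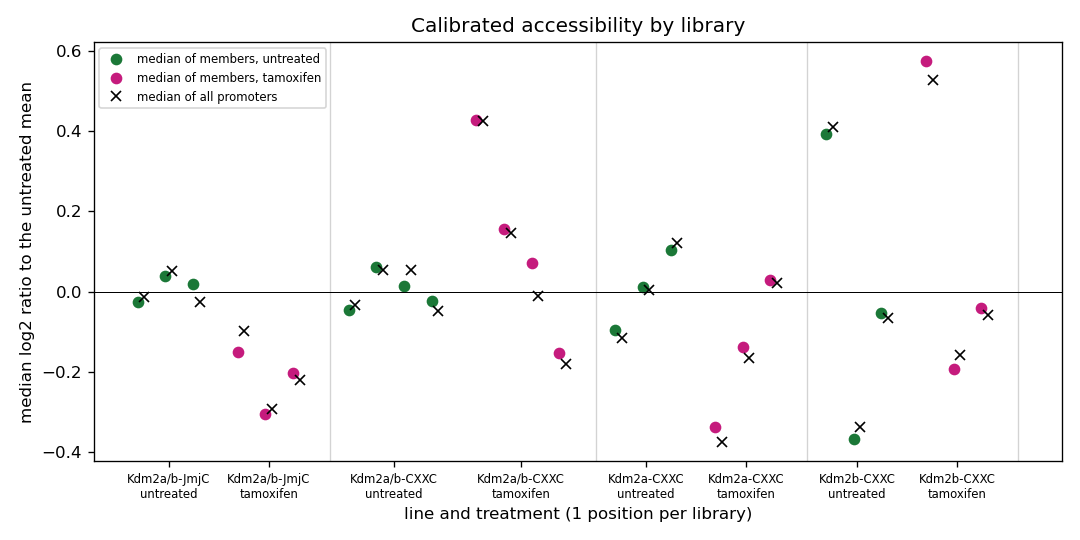
Median log2 ratio of calibrated reads to the untreated mean of the line (vertical axis) in each of the 26 libraries, for the members (circles, untreated and tamoxifen) and for all promoters with a mean of at least 10 reads (crosses). The circles and crosses move together in every library, and the libraries of Kdm2b-CXXC replicate 1 lie at 0.39 and 0.57 for the members.

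Among the Mediator genes 11 of 30 tested members (36.7%) were lower at an unadjusted p under 0.05, against 20.3% of all promoters, and the median was -0.27 on the calibrated scale and -0.06 with the TMM scaling described below. This difference from other promoters was not tested. Med13l, the paralogue of the kinase module subunit MED13, had 76.8, 62.6 and 67.8 calibrated reads in untreated cells and 37.4, 53.2 and 38.9 after tamoxifen. This is the lowest value of the set (log2 fold change -0.68 ± 0.23 SE, limma adjusted p = 0.104), and the groups did not overlap. Med23, a tail module subunit, had the smallest p, with 212, 217 and 196 against 158, 151 and 141 calibrated reads (-0.47 ± 0.14, adjusted p = 0.0782 by limma). Med24, another tail module gene and one of those that are not CpG-rich, had 172, 151 and 148 against 131, 108 and 88.0 (-0.53 ± 0.16, limma adjusted p = 0.0802). Med11, a head module subunit, had 206, 214 and 198 against 172, 154 and 129 (-0.45 ± 0.14, limma adjusted p = 0.0870). The values of all 4 were lower in every treated library than in any untreated one. Med4, by contrast, had the highest value, 0.09 ± 0.17, and Med1, which contacts nuclear receptors, 0.07 ± 0.17. Med23, Med24, Med11 and Polr2g are named here after their values were seen. The count models (edgeR quasi-likelihood and DESeq2) also called 0 members in this line and in each of the others.

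Among the polymerase genes, Polr2g, which encodes a subunit of the polymerase stalk, had the lowest value, with 99.4, 128 and 110 untreated and 76.9, 75.2 and 71.6 treated calibrated reads (-0.58 ± 0.19, limma adjusted p = 0.0884). Polr2a had 259, 254 and 229 untreated and 234, 187 and 183 treated calibrated reads, with overlapping groups (-0.30 ± 0.13, limma adjusted p = 0.180), and Polr2b, the second largest subunit, had 157, 123 and 128 against 119, 91.6 and 116 (-0.33 ± 0.17, limma adjusted p = 0.248), without overlap. Neither passed the threshold. Among the general factors Gtf2e1 of TFIIE gave -0.36 ± 0.15 and Gtf2b, Gtf2f1, Gtf2h1 and Gtf2a1 between -0.16 and -0.20. The TFIID group had a median of -0.16, with 2 of 19 (10.5%) at an unadjusted p under 0.05, against 20.6% of all promoters. Tbp had 157, 150 and 113 untreated and 159, 114 and 129 treated calibrated reads (-0.06 ± 0.16), Taf1, the TFIID scaffold, -0.23 ± 0.13 and Taf4 -0.17 ± 0.18, and their groups overlapped.

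**Figure D3:**
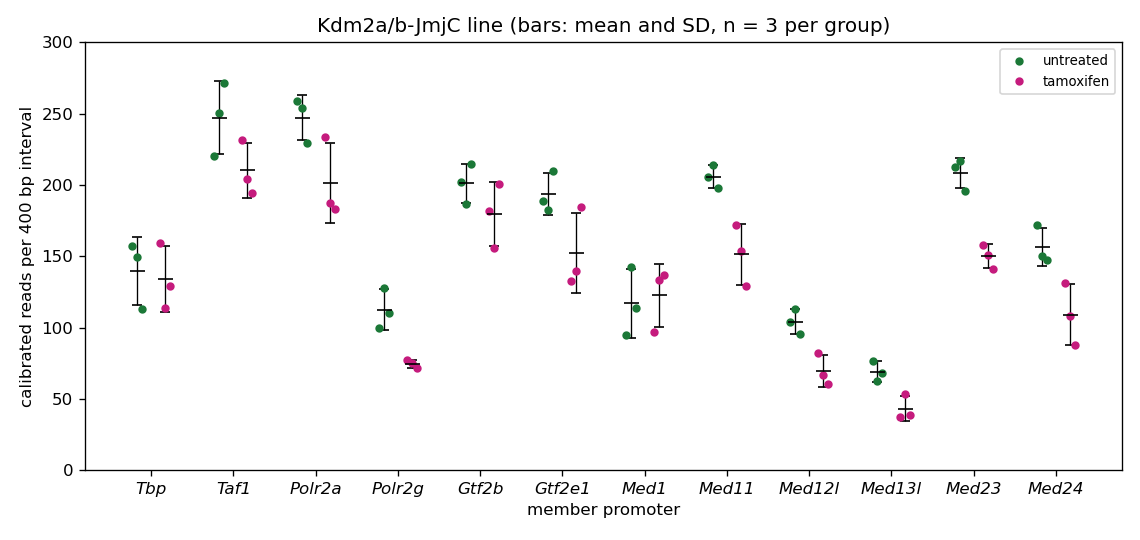
Calibrated reads per 400 bp interval (vertical axis) of 12 members in the 3 untreated and 3 tamoxifen libraries of the Kdm2a/b-JmjC line, with mean and SD as bars. The groups separate for Polr2g, Med11, Med12l, Med13l, Med23 and Med24 and overlap for Tbp, Taf1, Polr2a, Gtf2b, Gtf2e1 and Med1.

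The groups did not overlap at 18 of the 74 members, all lower (24.3%), against 24.1% of all promoters in either direction. When libraries were scaled to each other by the reads themselves (TMM, the trimmed mean of M-values), the median of all promoters was 0.00. The members then had 35 values below and 39 above 0 and a median of 0.01. No member and 0% of all promoters were then called, with 5 members (6.76%) and 5.65% of all promoters at an unadjusted p under 0.05. These 5 were Med12l, Med13l, Med23, Med24 and Polr2g, all lower, at TMM-scaled log2 fold changes of -0.26 to -0.47. Treated replicate 1 was nearest to the untreated libraries. Without it, Med23, Med24, Med11 and Med12l passed the threshold (4 members, limma adjusted p of 0.0225 to 0.0364, folds of 1.42 to 1.63), as did 607 of all promoters. With all libraries, 74 members and 17174 promoters were tested. Whether members passed more often than other promoters was not tested. The 95% interval of a member's log2 fold change was ± 0.33 at the median, and at 25 of 74 it lay wholly within a 1.4-fold change. Fewer accessible copies among the cells and lower accessibility of each copy cannot be told apart in these bulk samples.

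The second comparison asked the same of the cells that lose the ZF-CxxC domain of both KDM2A and KDM2B, which removes the proteins from CpG islands. In the Kdm2a/b-CXXC line values were slightly higher after tamoxifen, with a median log2 fold change of 0.10 over 74 tested members and 0.09 over all 16413 promoters. This direction rested on treated replicate 1, without which the members' median was -0.0023. No member was called, nor was any promoter (0%), and no member had an unadjusted p under 0.05, against 4.65% of all promoters. The treated libraries spread widely, since the median member stood at 0.43, 0.16, 0.07 and -0.15 relative to the untreated mean. Gtf2f1, the large TFIIF subunit, had the highest value, with 118, 151, 129 and 128 calibrated reads untreated and 185, 181, 180 and 131 treated (0.35 ± 0.18, limma adjusted p = 0.996). Gtf2a1 had the lowest, with 53.3, 33.9, 40.3 and 39.7 against 37.2, 36.5, 34.2 and 37.7 (-0.18 ± 0.26). The groups of both genes overlapped. Med26, which links Mediator to elongation factors, was the only member with groups that did not overlap, at 177, 188, 165 and 160 untreated and 234, 211, 197 and 202 treated calibrated reads (0.29 ± 0.18). This was 1 of 74 (1.35%), against 2.4% of all promoters. Tbp (0.03 ± 0.19), Polr2a (-0.01 ± 0.17), Polr2b (-0.03 ± 0.19), Gtf2b (0.03 ± 0.18), Gtf2h1 (-0.05 ± 0.18) and Taf4 (0.06 ± 0.20) differed by less than their errors, and Med12 stood at 0.30 ± 0.20, Gtf2e1 at 0.20 ± 0.19, Med1 at 0.16 ± 0.19, Taf1 at 0.10 ± 0.18 and Med14, the Mediator scaffold, at -0.12 ± 0.21.

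With TMM scaling 34 members of the Kdm2a/b-CXXC line were below and 40 above 0 (median 0.01), against 19 and 55 on the calibrated scale. None was called, while 0.104% of all promoters were. At an unadjusted p under 0.05 there were 4 members (5.41%), Gtf2f1, Med11, Med19 and Med26, against 9.71% of all promoters, with TMM-scaled log2 fold changes of 0.20 to 0.27. The 95% interval was wholly within a 1.4-fold change at 30 of 74 members on the calibrated scale and at 63 of 74 with TMM scaling.

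In the Kdm2a-CXXC line, where KDM2A alone is released from CpG islands, the median log2 fold change was -0.15 over 75 tested members and -0.18 over all 17727 promoters. Values were below 0 at 68 (90.7%) and above 0 at 7 members, and below 0 at 81.2% of all promoters. Without treated replicate 1 the members' median was -0.04, and without treated replicate 3 it was -0.26. No member and 0% of all promoters were called. At an unadjusted p under 0.05, 5 members (6.67%) were lower and 0 higher, against 8.39% of all promoters in either direction and 8% lower. The 5 were Taf11, Polr2l, Gtf2e2, Med11 and Tbp. Taf11, the histone-fold partner of TAF13 in TFIID, had the lowest value, with 95.5, 107 and 104 untreated and 68.0, 63.9 and 91.4 treated calibrated reads (-0.47 ± 0.22, limma adjusted p = 0.581). Tbp had 175, 176 and 219 against 129, 142 and 165 (-0.38 ± 0.19, limma adjusted p = 0.594). The groups of both genes did not overlap. The highest value was at Polr2m, 0.73 ± 0.51, on 12.4, 3.05 and 13.2 untreated and 12.2, 18.4 and 12.7 treated calibrated reads. The groups did not overlap at 13 of 75 members (17.3%), all lower, against 14.5% of all promoters in either direction. Relative to the untreated mean, the median member stood at -0.34, -0.14 and 0.03 in treated replicates 1 to 3. In untreated replicates 1 to 3 it stood at -0.10, 0.01 and 0.10. Replicate 3 was thus highest in both groups, and leaving out a single library unbalances them. This fit was unpaired. With the replicate number as a block, 188 of all promoters and 0 members were called, and the smallest limma adjusted p of a member was 0.0463. With TMM scaling the split was 32 below and 43 above 0 and no member or promoter was called (0%). At an unadjusted p under 0.05 there were then 2 members (2.67%, Med26 and Polr2i, both higher), against 6.17% of all promoters, and Taf11 remained lowest at -0.29. Polr2a (-0.14 ± 0.17), Polr2b (-0.13 ± 0.20), Gtf2b (-0.23 ± 0.17), Gtf2e1 (-0.26 ± 0.18), Taf1 (-0.24 ± 0.18), Med14 (-0.30 ± 0.21) and Med12 (-0.23 ± 0.21) lay below 0 on the calibrated scale, and Med1 (-0.03 ± 0.19), Med26 (0.06 ± 0.18), Gtf2f1 (-0.06 ± 0.19), Gtf2h1 (-0.11 ± 0.20) and Taf4 (-0.09 ± 0.21) near it, all with intervals that include 0.

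In the Kdm2b-CXXC line, where KDM2B alone is released, the wide calibrated spread noted above left the test with little resolution. The median 95% interval of a member was ± 0.72 on the log2 scale, and at none of the 75 tested members did it lie within a 1.4-fold change. This fit was unpaired, so any shift shared by same-numbered samples stayed in its error. With the replicate number as a block no member was called either, and the smallest limma adjusted p of a member was 0.0674. The median log2 fold change was 0.10, as over all 17930 promoters (0.10). It was -0.15 without treated replicate 1, -0.06 without untreated replicate 2 and 0.29 without untreated replicate 1. Leaving out a single library unbalances the groups here, since the median member was high in replicate 1 and low in replicate 2 of both. Relative to the untreated mean, these stood at 0.39 and -0.37 untreated and at 0.57 and -0.19 treated. In the unpaired fit no member or promoter was called (0%) and no member had an unadjusted p under 0.05, against 0.669% of all promoters. Polr2m was again highest (0.96 ± 0.68, on 3.46, 3.54 and 10.5 untreated and 18.1, 9.86 and 7.35 treated calibrated reads), and Taf9b lowest, with 143, 76.5 and 104 against 109, 59.2 and 88.2 (-0.33 ± 0.36). Med20, a head module subunit whose promoter is shared with Bysl, had 164, 94.2 and 134 untreated and 238, 179 and 165 treated calibrated reads (0.58 ± 0.37, limma adjusted p = 1.00). It was the only member with groups that did not overlap (1 of 75, 1.33%, against 2.58% of all promoters). Apart from Polr2m, the values of the core genes ran from -0.16 ± 0.37 for Taf4 to 0.40 ± 0.37 for Med1, with Tbp at -0.05 ± 0.37 and Polr2a at 0.06 ± 0.37.

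With TMM scaling, which takes out the common shift between libraries, the median 95% interval in this line narrowed to ± 0.25 and lay within a 1.4-fold change at 62 of 75 members. The split changed from 16 below and 59 above 0 to 38 below and 37 above. No member was called, against 0.00558% of all promoters. There were 6 members at an unadjusted p under 0.05, against 7.75% of all promoters. Med20 had the smallest p of these (TMM-scaled log2 fold change 0.49 ± 0.13, limma adjusted p = 0.198), and Taf5, Med28 and Med1 were higher and Taf9b and Med30 lower. Med20 was named after its value was seen.

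**Figure D4:**
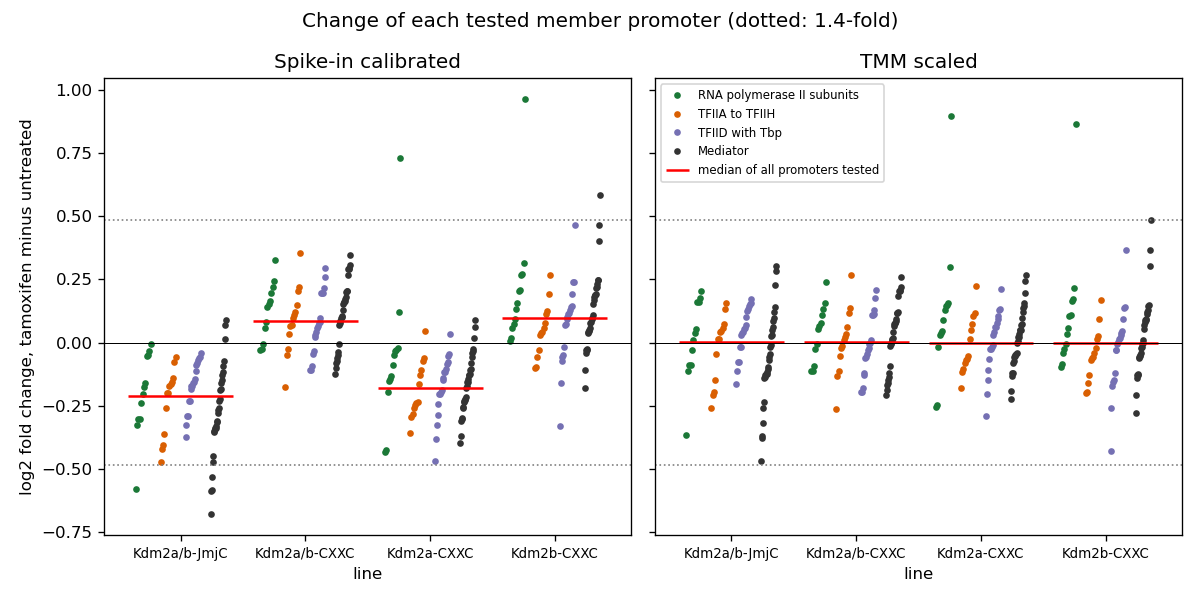
Log2 fold change (tamoxifen minus untreated, vertical axis) of each tested member in the 4 lines, coloured by complex, on the calibrated scale (left) and with TMM scaling (right). Red lines give the median of all promoters tested and dotted lines a 1.4-fold change. The members lie around the red line in each line, which is at -0.21, 0.09, -0.18 and 0.10 on the left, and the isolated high points are Polr2m.

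A joint fit over all 26 libraries tested whether the response to tamoxifen differed between the lines (limma moderated F test). None of 76 members passed an adjusted p under 0.05, nor did any of 19621 promoters (0%). The fit was unpaired and used a common residual variance for all groups. The wide calibrated spread of Kdm2b-CXXC thus entered the error of every line and limited what the test could detect. At an unadjusted p under 0.05 there was 1 member, Med11 (limma adjusted p = 0.968), and 3.78% of all promoters. Its log2 fold change was below 0 in the Kdm2a/b-JmjC line (-0.45 ± 0.14) and the Kdm2a-CXXC line (-0.37 ± 0.18) but above 0 in the Kdm2a/b-CXXC (0.35 ± 0.18) and Kdm2b-CXXC (0.25 ± 0.37) lines. With TMM scaling 3 members of 76 and 5.98% of all promoters had an unadjusted p under 0.05, and Med11 again had the smallest (limma adjusted p = 0.604).

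Genes of the same pathway that the symbol rule does not take in were described in the same way. They comprised 5 TFIIH genes, 2 genes of the Mediator kinase module, 7 relatives of TBP and TFIIB and 17 pausing and elongation factors. None of the 31 was called in any line. On the calibrated scale their median log2 fold change was -0.20 for Kdm2a/b-JmjC (members -0.20), 0.14 for Kdm2a/b-CXXC (members 0.10), -0.18 for Kdm2a-CXXC (members -0.15) and 0.11 for Kdm2b-CXXC (members 0.10). At an unadjusted p under 0.05 there were 5 of 31 in Kdm2a/b-JmjC (16.1%), all lower, against 20.6% of all promoters, and 1 of 30 in Kdm2a/b-CXXC (3.33%), against 4.65%. There were 0 in Kdm2a-CXXC and Kdm2b-CXXC, against 8.39% and 0.669%. Drap1, a subunit of the TBP-binding repressor NC2, gave the smallest p in the Kdm2a/b-JmjC line (-0.52 ± 0.15, limma adjusted p = 0.0773), and the elongation genes Nelfcd (-0.44 ± 0.17), Aff4 (-0.43 ± 0.14) and Paf1 (-0.43 ± 0.14) followed. Btaf1, whose product removes TBP from DNA, was highest there at 0.17 ± 0.17.

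Some members differed between the lines themselves, with both treatments pooled. This was described over libraries and not tested. In RPM, Gtf2f2, the small TFIIF subunit, had 93.3 ± 12.3 in the 6 Kdm2a-CXXC libraries and 46.9 ± 2.99, 56.8 ± 5.65 and 52.3 ± 8.29 in the Kdm2a/b-JmjC, Kdm2a/b-CXXC and Kdm2b-CXXC libraries, and its lowest Kdm2a-CXXC library (74.1) was above the highest of the other 20 (65.9). A transcript, Gm36429, starts on the opposite strand within this interval. The kinase module gene Med13 went the other way, at 30.5 ± 3.57 in Kdm2a-CXXC against 46.7 ± 5.93, 49.8 ± 6.53 and 49.0 ± 4.73. All Kdm2a/b-JmjC libraries were above the other 20 for the X-linked genes Taf1, at 134 ± 10.6 against 91.2 to 101, and Med12, at 80.6 ± 7.62 against 53.6 to 55.7. Among 74 members with a mean of at least 10 reads, the libraries of a line thus stood wholly apart from the rest at 2 in Kdm2a/b-JmjC, 2 in Kdm2a-CXXC and 0 in each of the other lines, which compares with 1.26%, 2.89%, 0.645% for Kdm2a/b-CXXC and 0.0117% for Kdm2b-CXXC over all promoters. Med25 and Gtf2h1, both on chromosome 7, were each highest in Kdm2a/b-CXXC and lowest in Kdm2a-CXXC. Med25 had 72.0 ± 7.60 and 35.5 ± 3.45 in these lines, and Gtf2h1 116 ± 9.37 and 69.8 ± 2.93. Tbp (76.3 to 86.3) and Polr2a (124 to 131) varied little in their line means.

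**Figure D5:**
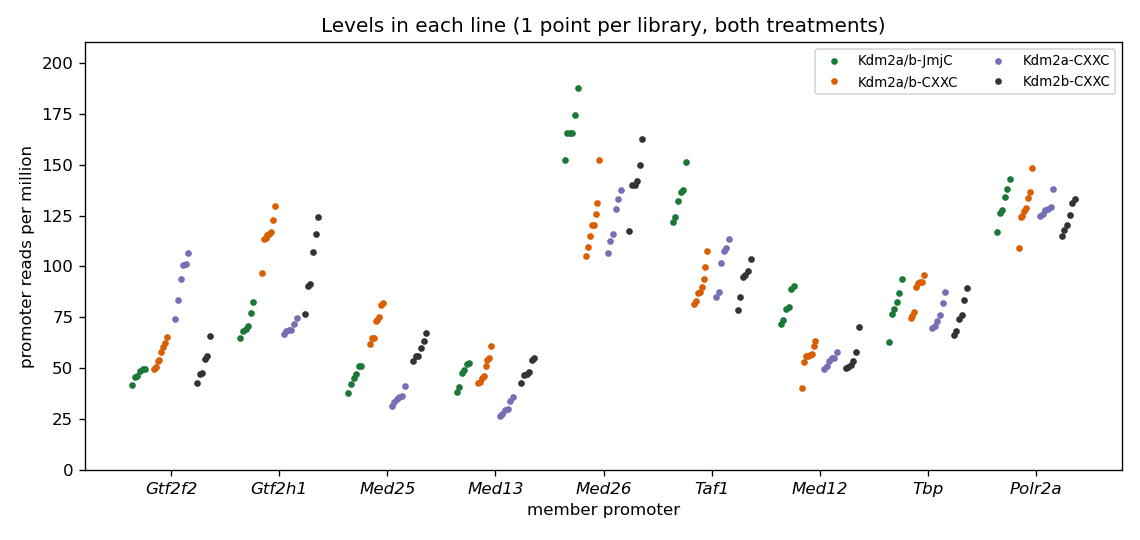
Promoter RPM (vertical axis) of 9 members in every library, coloured by line with both treatments together. Gtf2f2 is raised and Med13 lowered in Kdm2a-CXXC, Taf1 and Med12 are raised in Kdm2a/b-JmjC, and Tbp and Polr2a overlap in all lines.

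Some of these differences stood beside shifts of whole chromosomes. In Kdm2a/b-JmjC the median promoter of the X chromosome (515 promoters) was 0.34 higher on the log2 scale than in the other lines, and Med12, Taf1, Taf9b and Med14 stood at 0.55, 0.50, 0.40 and 0.03. On chromosome 8 the median was also 0.34, with Med26 at 0.39, Polr2c at 0.28, Taf5l at 0.25 and Gtf2e2 at 0.19, and on chromosome 1 it was 0.38, with Taf1a at 0.41. On chromosome 3 in Kdm2a-CXXC the median was 0.24, with Taf13 at 0.34, Gtf2b at 0.32 and Med12l at -0.06. Gtf2f2 and Med13 differed from their chromosomes, since in Kdm2a-CXXC they stood at 0.84 and -0.65 where chromosomes 14 and 11 had medians of -0.02 and -0.05. The part of the chromosome-wide shift in these values was not tested. The Kdm2a/b-CXXC line was derived from the Kdm2b-CXXC line and shares its origin. The lines otherwise differ in origin, clone and preparation, which cannot be told apart.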

How the data were processed

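Promoter accessibility was measured by cATAC-seq in 26 libraries of 4 mESC lines, and the 26 libraries of input DNA were not used. The authors aligned reads with Bowtie 2 to joined mm10 and dm6 genomes, removed multi-mapping reads, PCR duplicates, blacklisted regions and mitochondrial reads, and counted mouse reads over 400 bp promoter intervals. The deposited signal values are these reads divided by DESeq2 size factors from the spike-in, corrected for the mixing ratio. The tables also hold the authors' own means, fold changes and p-values, which were not used. The deposited signal values were whole multiples of what 1 read is worth (100% of values within 0.01 read), with size factors of 0.718 to 1.41, so that read counts could be recovered. Groups came from the sample labels.

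Within each line, log2(value + 1) was fitted with limma 3.58.1 (R 4.3.3, eBayes with trend) over all promoters that passed the edgeR 4.0.16 filter on recovered reads. A fold change is on this log2 scale with a pseudocount of 1, which understates the change of low promoters. Tests were two-sided, with Benjamini-Hochberg adjustment over all promoters tested. Called means an adjusted p under 0.05 and a fold over 1.4. Med27 at its internal start failed the filter in every line and Polr2m in Kdm2a/b-JmjC and Kdm2a/b-CXXC. The alternatives were other scalings (TMM, median of ratios, total promoter reads), pseudocounts of 0.5 and 8, no filter, count models (edgeR quasi-likelihood, DESeq2 1.42.0), a replicate block and leaving out each library. Coordinates are 1-based on mm10, and sequences and start sites are from RefSeq on GRCm38.p6. Motifs and CpG content were computed over the deposited interval. The counting errors given leave out PCR duplication and differences between preparations.

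The members and gene lists were chosen with earlier results of these data known. Named genes were 15 core genes in every line, paralogue pairs, the highest and lowest level in each complex and the highest and lowest fold change in each line, and every other gene named with a value was chosen after its values were seen. Of the genes matching the symbol rule, 4 are not analysed here.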

Additional observations from a re-analysis of the deposited data

Results flagged for a closer look

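In the Kdm2a/b-CXXC line, the only one with groups of 4, 154 groups of values (the 76 members and their median, each untreated and treated) were examined for a library far from the other 3, and 8 stood out. Chance flags about 1 in 20 such groups. Among untreated libraries, replicate 2 had 110.6 calibrated reads for Med16 (others 78.03 to 83.26), 103.6 for Med9 (others 130.7 to 134.3) and 104.6 for Med9os (others 137.8 to 144.2), whose interval overlaps that of Med9. Treated replicate 4, the library with the lowest median of the members in its group, had 130.8 for Gtf2f1 (others 180.0 to 184.7), 86.67 for Med24 (others 142.8 to 151.9) and 215.9 for Med29 (others 285.6 to 298.4). Treated replicate 1, with the highest median, had 121.6 for Taf11 (others 63.65 to 66.61) and 291.6 for Polr2i (others 160.5 to 179.0).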

How the results depend on the processing

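Of 4618 alternative values over all tested members, 4614 stayed on the same side of the threshold, and 609 differed in sign from the value reported, of which 193 were in Kdm2b-CXXC. No member was called in any line under any alternative, except without Kdm2a/b-JmjC treated replicate 1. Leaving out libraries there gave 0 to 4 members and 0 to 607 of all promoters called (59 without untreated replicate 3, 3 without treated replicate 3, and 0 without untreated replicate 1 or 2). With all libraries, 74 members and 17174 promoters were tested in that line. All promoters called in Kdm2a/b-JmjC, 13 as reported, were 0 with TMM, median-of-ratios or total-read scaling and without the filter, 71 with a pseudocount of 8 and 114 with edgeR. In Kdm2a/b-CXXC they were 17, 17 and 18 with the same scalings and 0 to 8 on leaving out libraries (8 without treated replicate 4, 5 without treated replicate 1). In Kdm2a-CXXC they were 0 to 43 (43 without treated replicate 3), and in Kdm2b-CXXC 1 with each scaling. The median log2 fold change of the members became 0.014 with TMM, 0.0085 with median-of-ratios and 0.014 with total-read scaling in Kdm2a/b-JmjC, and 0.030, 0.026 and 0.036 in Kdm2a-CXXC. The cause was not tested, beyond that these scalings remove the common shift between libraries. Leaving out libraries moved the median from -0.26 to -0.04 in Kdm2a-CXXC, from -0.00 to 0.20 in Kdm2a/b-CXXC and from -0.15 to 0.29 in Kdm2b-CXXC.

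With the replicate number as a block, 188 of all promoters were called in Kdm2a-CXXC, 62 in Kdm2a/b-JmjC, 5 in Kdm2b-CXXC and 0 in Kdm2a/b-CXXC, and 0 members were called. In Kdm2a-CXXC the smallest limma adjusted p of a member was then 0.0463, against 0.581 as reported, without a change of more than 1.4-fold. Correlations of same-numbered samples across promoters, on TMM-scaled values, ran from -0.00558 to 0.0724, none over 0.1. The reported fits did not pair samples by number. Yet 6 of 6 samples in Kdm2a/b-JmjC correlated best with their own number (2 of 6 in Kdm2b-CXXC, 4 of 6 in Kdm2a-CXXC and 4 of 8 in Kdm2a/b-CXXC). In Kdm2a/b-JmjC the same-numbered correlations were 0.0448 to 0.0724, and those of differing numbers were at most 0.00099. These correlations leave out the common shift of a library, and counting error lowers them. Low values therefore cannot decide whether the samples or that shift are paired. On the calibrated scale the median member in Kdm2b-CXXC replicates 1 to 3 stood at 0.39, -0.37 and -0.05 untreated and 0.57, -0.19 and -0.04 treated. In Kdm2a-CXXC it stood at -0.10, 0.01 and 0.10, and at -0.34, -0.14 and 0.03. In Kdm2a/b-JmjC and Kdm2a/b-CXXC the order of the numbers differed between the groups. With 55% GC and a CpG ratio of 0.75 as the limits, 55 members (72.4%) were CpG-rich, against 39.6% of all promoters. Over the central 200 bp, 4 members held the TATA box (5.26%, against 6.15% of all and 2.60% of the CpG-rich promoters). The GC box was found there at 45 (59.2%, against 45.5% of all and 68.5% of the CpG-rich promoters). The CCAAT box was found at 19 (25.0% against 25.4% and 25.7%) and the E-box at 6. The E-box share, 7.89% against 5.81% of all and 7.56% of CpG-rich promoters, was there close to the background. At 58 to 108 reads per promoter, counting error limits the lowest members most.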
